A study of Homo sapiens with 16 samples.

Results

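The cells described here were cells of human kidney organoids, chosen as proliferating by their transcripts of 8 mitotic genes. The name rests on this choice, and in some clusters of the TNFα library, described below, other mitotic genes separated the chosen cells only weakly. A barcode with more than 500 detected genes was called gated when at least 4 of MKI67, TOP2A, CENPE, NUSAP1, DLGAP5, UBE2C, ASPM and TPX2 had at least 1 unique molecular identifier (UMI, one captured transcript). The rule kept 4168 of 35066 cells, of which 2025 of 11906 came from the vehicle control (VC) library and 2143 of 23160 from the TNFα library. Because the 8 genes selected the cells, their levels in gated cells are a description and carry no test, and so does every other contrast of gated with other cells.

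The organoids were differentiated from human embryonic stem cells, the line UM77-2 for the bulk libraries, and none carried an added gene or an edit. Both single-cell libraries were made at day 24 of culture with 10x Genomics 3′ chemistry, after 24 h with vehicle or with TNFα at 5 ng/ml. Bulk RNA sequencing gave 3 further sets that the gate did not use: set 1 with 1 untreated library at each of days 21, 25 and 29 (D21, D25, D29), set 2 with 2 untreated libraries at each of the same days, and a TNF set with 1 VC and 1 TNFα library at each of 24 h and 48 h, also at 5 ng/ml. With 1 single-cell library per condition, a difference between VC and TNFα is a difference between 2 libraries and has no replicate check.

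A dividing cell copies its DNA in S phase and then separates the copies in mitosis, and each step has its own set of transcripts. Genes of DNA replication are switched on by E2F factors at the entry into S phase, whereas genes of the spindle, the kinetochore and cytokinesis are switched on later, by the MuvB complex with B-MYB and FOXM1, through a short promoter motif called the cell cycle genes homology region (CHR) that often lies beside CCAAT boxes bound by NF-Y. In the developing kidney, progenitor and stromal cells divide, whereas podocytes, the filtering cells of the glomerulus, leave the cell cycle as they mature.

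All 8 genes act late in the cycle. MKI67 coats mitotic chromosomes, TOP2A untangles sister DNA, CENPE is a kinesin of the kinetochore, NUSAP1 and DLGAP5 bind spindle microtubules, UBE2C serves the anaphase-promoting complex, ASPM sits at the spindle poles, and TPX2 activates Aurora A kinase on the spindle. They lie on 7 chromosomes. In GRCh38 coordinates of the annotation, ASPM is on chr1:197084121-197146694, CENPE on chr4:103105349-103198445, MKI67 on chr10:128096659-128126423, DLGAP5 on chr14:55148112-55191608 and TOP2A on chr17:40388525-40417896, all on the minus strand. NUSAP1 is on chr15:41320794-41381050, TPX2 on chr20:31739271-31801805 and UBE2C on chr20:45812576-45816957, all on the plus strand. Of the 6 gate genes in the RefSeq promoter table (GRCh38.p14, 250 bases before to 50 after the start), 5 held the CHR letters TTTGAA on either strand, and the same 5 held CCAAT. In CENPE none of the letters searched were found. Stretches from 4 of these promoters are shown because they hold the motif that these genes share, which the gate did not use. They are written 5′ to 3′ on the gene's strand, and capitals mark TTTGAA or its reverse TTCAAA and CCAAT or its reverse ATTGG. The second TTTGAA of MKI67 overlaps a reversed CCAAT. The MKI67 stretch is chr10:128126427-128126502, that of TOP2A chr17:40418022-40418097, that of DLGAP5 chr14:55191669-55191744 and that of ASPM chr1:197146757-197146832.
MKI67: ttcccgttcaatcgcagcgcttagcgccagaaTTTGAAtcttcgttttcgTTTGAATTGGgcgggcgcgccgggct
TOP2A: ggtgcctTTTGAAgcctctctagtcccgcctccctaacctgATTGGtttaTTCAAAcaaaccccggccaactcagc
DLGAP5: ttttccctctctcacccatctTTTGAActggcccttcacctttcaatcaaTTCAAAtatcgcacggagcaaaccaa
ASPM: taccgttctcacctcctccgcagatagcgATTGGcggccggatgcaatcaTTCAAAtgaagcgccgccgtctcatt

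The same letters were counted in the promoters of the other lists. A CHR, counted as TTTGAA or its variant TTCGAA on either strand, was found in 71.4% of 56 promoters of a mitosis list (48 of its 56 genes matched the table), in 9.86% of 71 promoters of a replication list (50 of 61 genes matched) and in 16.4% of all 35116 promoters. CCAAT was found in 73.2% of the mitosis promoters, 56.3% of the replication promoters and 34.6% of all. E2F letters, counted as TTTGGCGC or TTCCCGC on either strand, were found in 14.3% of the mitosis promoters, 50.7% of the replication promoters and 7.13% of all. CHR and CCAAT stood together in 57.1% of the mitosis promoters, in 7.04% of the replication promoters and in 6.38% of all. A match of letters is a description of the window and not evidence of binding.

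The libraries differed in depth, which sets how readily a cell passes the gate. The VC library held 100623461 UMIs, with a median of 6358.5 per cell (613 to 198104), and the TNFα library held 91152175 UMIs, with a median of 2599 per cell (1514 to 107145). Gated cells made up 17.0% of VC cells (exact 95% interval 16.3 to 17.7) and 9.25% of TNFα cells (8.88 to 9.63). After every cell was thinned to 1500 UMIs, which left out 953 shallower VC cells and no TNFα cell, 781 of 10953 VC cells (7.13%, 6.66 to 7.63) and 666 of 23160 TNFα cells (2.88%, 2.66 to 3.10) passed the gate. The share in the TNFα library was thus 0.544 times that in the VC library, and 0.403 times at equal depth. With at least 3 gate genes in place of 4 it was 0.830 times, and with at least 5 it was 0.388 times. All such intervals cover counting error only, and the difference between the libraries had no replicate test.

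Gated cells were deeper than the rest. Their median was 11036 UMIs against 5743 in VC and 4311 against 2504 in TNFα, and they held 28.1% and 16.1% of all UMIs of the 2 libraries. Their median number of detected genes was 3701 against 2490 in VC and 2086 against 1418 in TNFα. At 1500 UMIs the medians came close together, at 946 against 930 genes in VC and 961 against 947 in TNFα. Scrublet's automatic threshold marked no doublet in either library, so the highest Scrublet scores were used as a second view (0.8% per 1000 cells: 1134 VC and 4291 TNFα cells). They included 15.5% of gated and 8.31% of other cells in VC, but 10.3% of gated and 19.4% of other cells in TNFα. The libraries shared 82 barcodes, 1 of them among gated cells.

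In VC the gated cells piled up at the upper end, where 839 cells (41.4% of those gated) held all 8 genes and 299 held exactly 4. In TNFα they piled up at the threshold, where 839 cells (39.2% of those gated) held exactly 4 and 292 (13.6%) held all 8. At 1500 UMIs per cell both libraries had more gated cells at 4 genes than at 8, with 267 and 41 in VC and 396 and 9 in TNFα. The summed level of the mitosis list, which contains none of the gate genes, was higher in cells just inside the threshold than in cells just outside it. VC cells with 3 and 4 gate genes had 2015 and 2599 CPM (UMI counts scaled to the same total in each group of cells) of it, TNFα cells 2728 and 3485 CPM, and cells with all 8 had 12460 CPM in VC and 10530 CPM in TNFα.

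**Figure D1:**
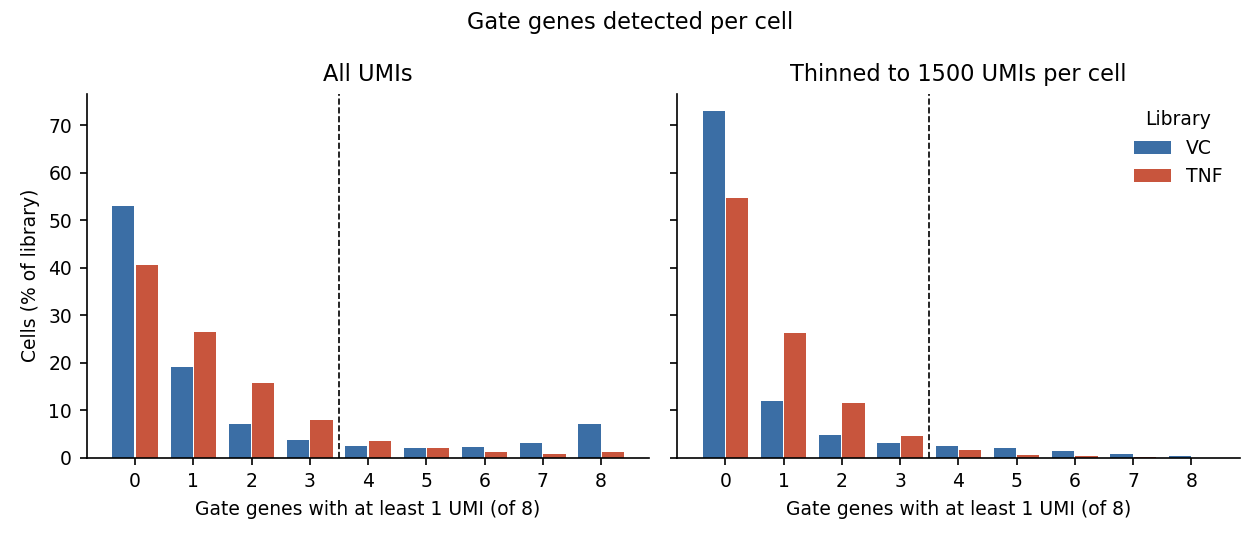
Cells by the number of gate genes with at least 1 UMI (horizontal axis, 0 to 8), as a percent of each library (vertical axis), as deposited and after thinning each cell to 1500 UMIs; the dashed line is the gate. As deposited, 839 VC cells held all 8 genes, while in TNFα the counts fell from 839 cells at 4 genes to 292 at 8; after thinning they fell from 267 to 41 in VC and from 396 to 9 in TNFα.

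The levels of the gate genes, given as description, were as follows. MKI67 was at 362.0 CPM in gated and 10.4 CPM in other VC cells, and at 282.0 and 35.9 CPM in the TNFα library. TOP2A was at 570.8 and 18.1 CPM in VC and at 406.8 and 59.6 CPM in TNFα. UBE2C, the gate gene with the highest level in both libraries, was at 580.5 and 18.0 CPM in VC and at 455.8 and 52.1 CPM in TNFα. The levels of the other gate genes in gated cells lay between the 161.1 CPM of CENPE and the 446.5 CPM of NUSAP1 in VC, and between 122.5 and 367.9 CPM for the same genes in TNFα. For each gene the level in cells outside the gate was higher in TNFα than in VC.

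Levels of 2 further lists of cell cycle genes were then taken. The gate chose the cells by genes of the same cycle, so these levels are a description and no independent check of the label. All 56 genes of the mitosis list and most of the 61 of the replication list were higher in gated cells than in other cells of the same class. Every one of the 56 mitosis genes was at least 2-fold higher in both libraries, with a median log2 ratio of 4.06 in VC and 2.60 in TNFα. In VC 2.81% of the 17540 genes with enough UMIs were at least 2-fold higher in gated cells and 3.34% at least 2-fold lower, and in TNFα 2.10% and 1.78% of 17156. HMGB2, a chromatin protein and the most abundant of the list, was at 1080 CPM in gated and 101 CPM in other VC cells, and at 808 and 174 CPM in TNFα. CCNB1, the cyclin that drives entry into mitosis, was at 286 and 15.5 CPM in VC and at 218 and 38.9 CPM in TNFα. The largest ratios were those of KIF20A, a kinesin of cytokinesis, in VC (log2 ratio 5.31) and of CENPA, the histone of the centromere, in TNFα (3.30), and the smallest were those of CKAP2, a spindle protein (2.28 and 1.65).

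The replication list separated gated from other cells less widely. Of its 61 genes, 41 were at least 2-fold higher in gated VC cells and 26 in gated TNFα cells, none was 2-fold lower, and the median log2 ratios were 1.18 and 0.92. RRM2, a subunit of the enzyme that makes deoxyribonucleotides, had log2 ratios of 3.36 and 2.04, and E2F8, a late repressor of E2F targets, 3.32 and 2.08. PCNA, the sliding clamp of DNA polymerases, was at 126 CPM in gated and 48.8 CPM in other VC cells and at 124 and 64.3 CPM in TNFα, log2 ratios of 1.16 and 0.83 within classes. NASP, a histone chaperone and the most abundant of the list, had log2 ratios of 0.69 and 0.54, and MCM5, part of the helicase loaded before S phase, 0.35 and 0.48. UNG, a repair enzyme of early S phase, was slightly lower in gated cells, at −0.27 and −0.31. When cells were thinned to 1500 UMIs before the gate was applied, the medians fell to 0.56 and 0.33, with 17 and 5 genes at least 2-fold higher.

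At equal depth, mitotic transcripts outnumbered replication transcripts in most gated cells. The median gated cell held 23 UMIs of the mitosis list and 4 of the replication list in VC, and 12 and 4 in TNFα, against 1 and 2 in other VC cells and 2 and 3 in other TNFα cells. Only 7.68% of gated VC cells and 12.5% of gated TNFα cells held more replication than mitosis UMIs, compared with 60.2% and 52.9% of the others. At least 5 mitosis UMIs were present in 98.7% of gated VC cells and in 86.5% of gated TNFα cells, and also in 11.6% and 20.1% of cells outside the gate.

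**Figure D2:**
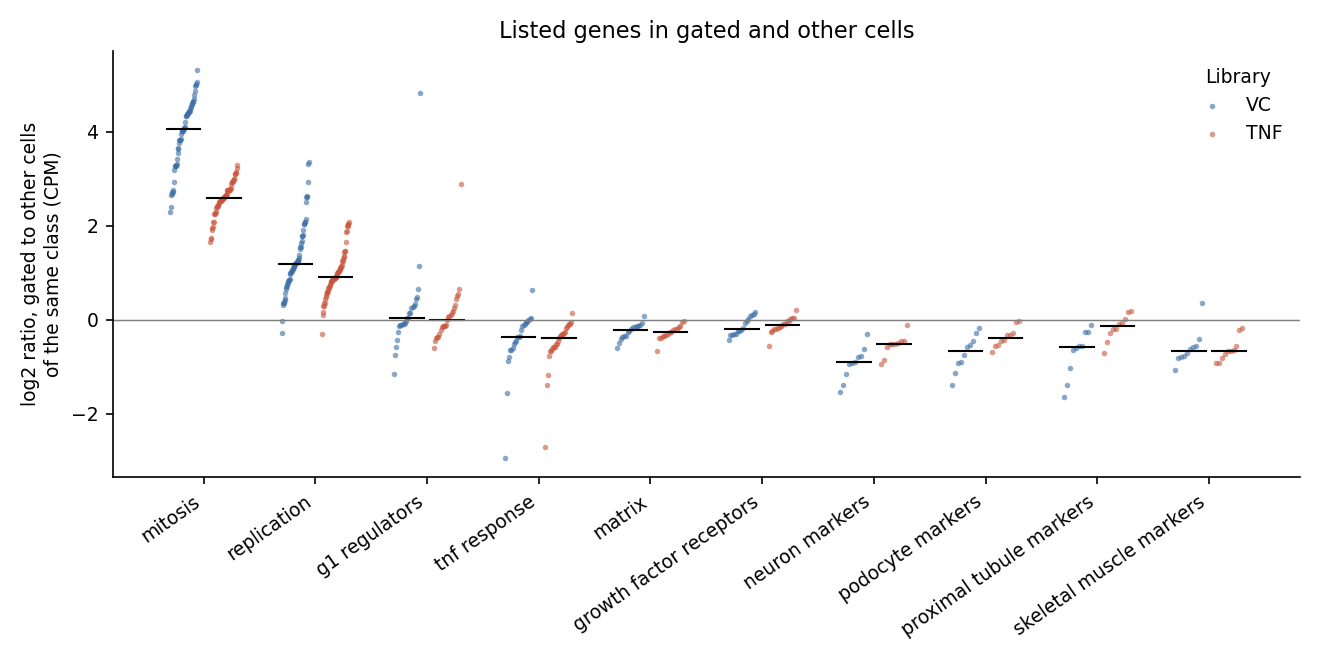
Log2 ratio of CPM in gated to other cells of the same class (vertical axis) for each gene of the lists (horizontal axis), VC and TNFα library, 1 point per gene with a bar at the median. The 56 mitosis genes lie above 1 in both libraries, the replication genes spread from −0.31 to 3.36, and the medians of the G1 regulators, the TNFα response, the matrix and the growth factor receptors lie between −0.39 and 0.04. CDKN2C, at 4.82 in VC and 2.89 in TNFα, stands highest among these.

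Regulators of the passage through G1 did not move as a group, with medians of 0.04 in VC and 0.00 in TNFα over 25 measured genes. CDKN2C, an inhibitor of the cyclin D kinases, had the highest ratio, with 11.8 CPM in gated and 0.36 CPM in other VC cells and 6.94 and 1.12 CPM in TNFα. RBL1, a pocket protein that represses E2F targets, had log2 ratios of 1.14 and 0.66. Lower in gated cells were GADD45A, a stress-induced brake on division (log2 ratio −1.15 in VC and −0.60 in TNFα), BTG2, an antiproliferative gene (−0.74 and −0.45), and CDKN1C, the inhibitor found in cells that leave the cycle (−0.57 and −0.37). CDKN1A, which encodes p21, pointed opposite ways, at 0.31 in VC and −0.38 in TNFα, on 108 and 91 UMIs in gated cells. CCND1, the cyclin of G1 entry, differed little, at −0.07 and 0.05.

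Genes of the extracellular matrix were slightly lower in gated cells, 15 of 16 in VC and 16 of 16 in TNFα, but none 2-fold, with medians of −0.22 and −0.27. The medians over all measured genes were −0.12 and −0.07. Of 16 growth factor receptors 11 were lower in VC and 12 in TNFα, with medians of −0.20 and −0.11. Of all measured genes, 11686 of 17540 were lower in gated cells in VC and 10618 of 17156 in TNFα. Among genes in no list, 10 were named for the largest ratios held in both libraries. PIF1, a DNA helicase, came first, at 72.1 CPM in gated and 1.40 CPM in other VC cells and at 48.0 and 5.08 CPM in TNFα (log2 ratios 5.68 and 3.49). DEPDC1 followed with 4.89 and 3.28, CDCA2, which recruits a phosphatase to chromosomes, with 4.56 and 3.02, and KIFC1, a kinesin that gathers spindle poles, with 4.63 and 2.87. FAM83D, a spindle protein, had 4.78 and 2.78, CDKN3, a phosphatase of cyclin-dependent kinases, 4.31 and 2.75, NEIL3, a DNA glycosylase, 4.36 and 2.66, and PIMREG 3.96 and 2.66. TROAP had 3.87 and 2.67 and PSRC1, a spindle protein, 3.38 and 2.63.

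The 10 genes with the lowest ratios in both libraries were as follows. DDN, or dendrin, a protein of the podocyte slit diaphragm, was at 17.0 CPM in gated and 69.7 CPM in other VC cells, a log2 ratio of −1.33 within classes in VC and −1.14 in TNFα. NTNG1, a netrin-like axon guidance protein, had −1.86 and −0.98, AQP3, a water channel of the collecting duct, −1.20 and −0.94, and HSPB3, a small heat shock protein of muscle, −0.97 and −1.13. On 51 UMIs in gated VC cells, HSPB3 stood at −3.29 without the highest Scrublet scores. The others were FAM43A (−1.29 and −1.17), PALMD (−1.15 and −1.15), S100A14 (−1.18 and −1.04), KLHL35 (−1.67 and −1.04), SGIP1 (−1.04 and −1.03) and AC092813.2 (−1.32 and −0.94). Classes pool clusters with unequal gated shares, so the ratios were also taken with the other cells weighted to the clusters of the gated cells. All 10 genes were then still lower in both libraries, but DDN had −0.57, NTNG1 −1.20 and AC092813.2 −0.67 in VC, and HSPB3 −0.33 in TNFα. DDN and NTNG1 were among the top 10 genes of the VC podocyte-like cluster with 26 of 901 cells gated, and not of that with 68 of 501 gated.

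Gated cells were found in every class of both libraries, at unequal shares. Classes came from clustering each library after a set of cell cycle genes was removed, which did not include CDKN3, DEPDC1 and PIF1. A cluster took a name only from at least 3 markers of a fixed list. In VC the gated share was 40.0% in Schwann or neural crest-like cells (36.4 to 43.7, 718 cells), 36.4% in nephron progenitor-like cells (30.3 to 42.9, 236 cells), 32.8% in neural progenitor-like cells (29.4 to 36.3), 24.5% in coelomic or gonadal epithelium-like cells (21.6 to 27.6) and 21.1% in myogenic progenitor-like cells (18.4 to 24.1). It was 18.2% in proximal tubule-like, 15.6% in stromal-like, 13.8% in distal tubule-like and 12.3% in neuron-like cells. The lowest shares of the named classes as deposited were 7.37% in skeletal muscle-like cells (4.62 to 11.0) and 6.70% in podocyte-like cells (5.45 to 8.14). Podocytes, muscle fibres and neurons are all held to be postmitotic when mature. Without the highest Scrublet scores the share was 3.29% in skeletal muscle-like and 4.93% in podocyte-like VC cells.

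Equal depth changed the order. At 1500 UMIs the share was 17.7% in nephron progenitor-like cells (13.0 to 23.3), 17.1% in neural progenitor-like (14.4 to 20.2), 12.0% in coelomic or gonadal epithelium-like, 11.2% in Schwann or neural crest-like, 9.87% in stromal-like (8.53 to 11.3), 8.99% in myogenic progenitor-like and 6.06% in neuron-like cells of the VC library. The proximal tubule-like share was then 4.17% (2.72 to 6.10) and the distal tubule-like share 2.24% (1.23 to 3.74). It was 1.58% in podocyte-like (0.98 to 2.41) and 1.89% in skeletal muscle-like cells (0.62 to 4.36), both below the share of the named neuron-like class (4.66 to 7.71). That class leaves out unnamed clusters of 418 and 201 cells with 10 neuron markers each. Their shares at equal depth were 0.87% (0.18 to 2.53) and 1.55% (0.32 to 4.48). Whether podocyte-like, skeletal muscle-like or neuron-like cells lack dividing cells was not tested. In gated podocyte-like VC cells 54 of 54 mitosis genes were at least 2-fold higher than in the others (median log2 ratio 4.29). Of all genes, 2.81% were at least 2-fold higher in gated VC cells of all classes. The gate chose the cells by other mitotic genes, so the count is a description and does not answer that question. The interval of the distal tubule-like share overlapped those of the podocyte-like and skeletal muscle-like shares. That of the proximal tubule-like share overlapped the skeletal muscle-like one. Highest Scrublet scores fell on 61.9% of gated skeletal muscle-like, 37.2% of gated podocyte-like, 26.9% of gated neuron-like and 25.9% of gated proximal tubule-like VC cells, against 3.49% of gated nephron progenitor-like and 6.0% of gated stromal-like cells.

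Unnamed VC clusters held 33.3% to 4.07% gated cells. The highest share was that of 93 cells with both Schwann and melanocyte genes (9.68% at equal depth), and a cluster of 1070 cells with 9 stromal markers, but with mural genes in its top 10, held 10.7% (2.99% at equal depth). A shallow cluster led by ATF3, a stress-induced factor, with a median of 978 UMIs, held 11.8% of 524 cells, and 14.0% of the 107 cells that could be thinned. It had 4 endothelial markers, PECAM1, CDH5, KDR and ESAM, but ACTA2 and TAGLN of the mural list stood among its top 10 genes. Shares differed within classes too. Of the VC neural progenitor-like clusters, that of 207 cells led by HES5, SOX2 and SOX3 held 48.8% gated cells and the other 26.3%. Neuron-like clusters ranged from 4.81% in the cluster led by PRPH, GAP43 and NEFM, genes of axons and neurofilaments, to 17.2% in that led by HES6 and ATOH1, transcription factors of early neurons. The podocyte-like clusters held 2.89% and 13.6%. A stromal-like cluster of 74 cells was gated throughout and was led by CDKN3, DEPDC1 and PIF1, genes that were higher in gated cells and were not among those removed before clustering. The stromal-like shares include this cluster and leave out the unnamed cluster with 9 stromal markers. Their place among the classes therefore rests in part on the clustering and naming.

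In the TNFα library the stromal classes could not be named by the same rule. No cluster was stromal-like, so 0 of 2143 gated cells took that name, whereas 14.8% of gated VC cells did. The naming rule sets this 0, and with clusters at resolution 2 the share in TNFα was 9.99%. An unnamed cluster of 1929 TNFα cells had 8 stromal markers, among them COL1A1, COL3A1 and PDGFRA, but ACTA2 and TAGLN of the mural list stood among its top 10 genes, and it held 310 gated cells (14.5% of those gated). The gated share was 25.1% in Schwann or neural crest-like cells (22.1 to 28.2), 22.8% in coelomic or gonadal epithelium-like, 19.4% in neural progenitor-like, 18.5% in a cluster tied between nephron and myogenic progenitors, and 16.1% in the cluster with stromal markers (14.5 to 17.8). It was 8.42% in proximal tubule-like, 7.92% in skeletal muscle-like, 7.19% in neuron-like and 6.63% in podocyte-like cells (5.81 to 7.53). Of 40 mural-like cells 5 were gated, and none at equal depth, which allows a share of up to 8.81%.

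At 1500 UMIs the share in skeletal muscle-like TNFα cells was 2.64% (1.90 to 3.56) and in podocyte-like cells 1.99% (1.54 to 2.52). Above both stood neural progenitor-like (9.97%, 7.0 to 13.7), coelomic or gonadal epithelium-like (8.21%), the tied progenitor cluster (8.19%), Schwann or neural crest-like cells (6.02%) and the cluster with stromal markers (5.96%, 4.95 to 7.11). All other TNFα classes were at or below the skeletal muscle-like share, including neuron-like (2.03%) and proximal tubule-like cells (1.09%).

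**Figure D3:**
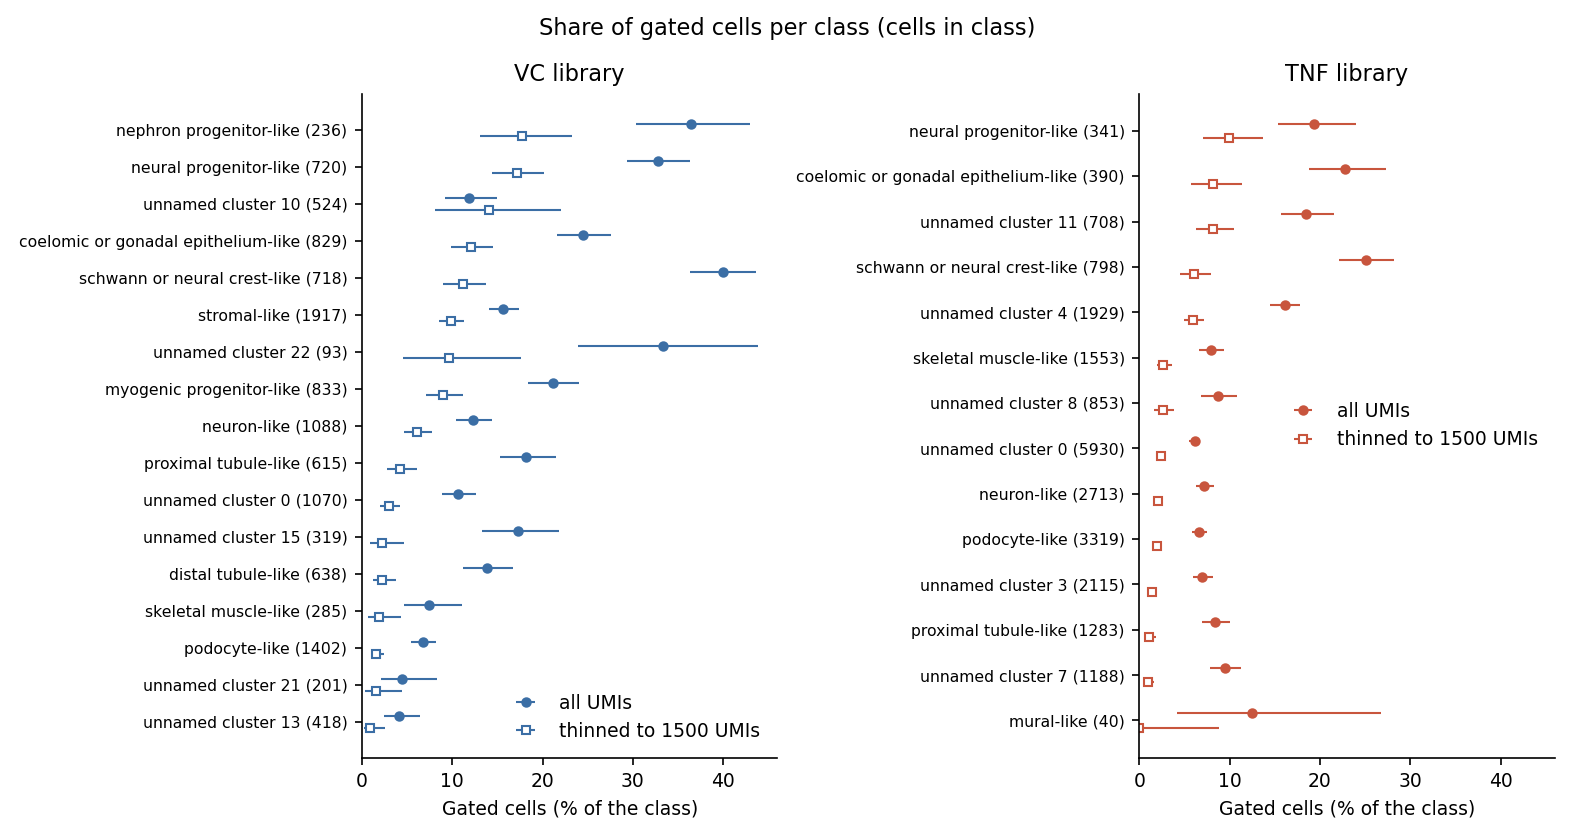
Gated cells as a percent of each class (horizontal axis) with exact 95% intervals, as deposited (filled) and at 1500 UMIs per cell (open), for VC and TNFα; cell numbers stand beside the class names. Among the named classes, progenitor-like, coelomic or gonadal epithelium-like and Schwann or neural crest-like cells lie highest as deposited. At equal depth the intervals of stromal-like (9.87%, 8.53 to 11.3) and myogenic progenitor-like VC cells (8.99%, 7.11 to 11.2) overlap. Podocyte-like and skeletal muscle-like cells lie between 1.58% and 2.64% at equal depth.

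Gated and other cells differed less in the mitosis list in some TNFα clusters. The largest cluster of that library, with 5930 cells, a median of 1993 UMIs and no marker of any class, held 363 gated cells (16.9% of those gated), of which 2 had all 8 gate genes. Its median log2 ratio of gated to other cells over the mitosis list was 1.19, with 56 of 56 genes higher and 43 at least 2-fold, and the summed level was 4644 CPM in gated and 2180 CPM in other cells. In a second cluster without markers (1188 cells, 112 gated, none with all 8 genes) it was 0.41, with 37 of 44 genes higher and 2 at least 2-fold, on 2465 and 1793 CPM. In a cluster with both proximal and distal tubule markers it was 1.54, with 50 of 50 genes higher and 43 at least 2-fold, on 4471 and 1618 CPM. It was 3.93 in the cluster with stromal markers, 3.71 in the tied progenitor cluster and 3.08 in neural progenitor-like cells. Named TNFα classes went down to 1.92 in neuron-like, 2.03 in skeletal muscle-like, 2.26 in coelomic or gonadal epithelium-like and 2.32 in Schwann or neural crest-like cells. In VC the medians of the named classes ran from 3.31 in distal tubule-like to 5.18 in neuron-like cells, and the lowest of the unnamed clusters were 1.99 and 2.19. In gated podocyte-like and proximal tubule-like VC cells the summed level was 4258 and 4659 CPM, and in the other cells of the named VC classes it lay between 476 and 1113 CPM. The shallow unnamed VC cluster led by ATF3 had 14915 CPM in gated and 3464 CPM in other cells, the latter above those of the TNFα clusters given here. In the other cells of the remaining unnamed VC clusters the level lay between 403 and 1135 CPM.

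Markers of one class stood at a higher share of their library-wide CPM in cells of another class in TNFα in 10 of 12 pairs of podocyte-like, neuron-like and skeletal muscle-like cells with the markers of the other classes examined. Podocyte markers in neuron-like cells reached 8.60% of their library-wide CPM in VC and 49.3% in TNFα, and stromal markers 21.7% and 71.5%. Neuron markers in skeletal muscle-like cells reached 47.1% and 80.6%, and in podocyte-like cells 8.69% and 31.0%. The exceptions were skeletal muscle markers in podocyte-like cells (37.3% and 28.5%) and proximal tubule markers in skeletal muscle-like cells (68.3% and 47.5%). The part of free RNA, depth or doublets in these values was not tested.

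In neuron-like, podocyte-like and proximal tubule-like cells most markers of the class were lower in the gate. Over all classes, 11686 of 17540 genes in VC and 10618 of 17156 in TNFα were lower in gated cells. Shares of all genes within a class are not given here, and marker counts near those over all classes are not read as a result about markers. All 10 neuron markers were lower in gated than in other neuron-like cells in both libraries, with median log2 ratios of −1.71 in VC and −0.73 in TNFα. STMN2, a microtubule regulator of growing axons, was at 804 CPM in gated and 3701 CPM in other neuron-like VC cells (log2 ratio −2.20, and −1.11 in TNFα), and TUBB3, the neuronal tubulin, had −1.54 and −0.81. The VC cluster led by PRPH, GAP43 and NEFM gave 10 of 134 gated and 198 of 954 other neuron-like cells, and with weights to clusters the medians were −1.28 in VC (10 of 10 lower) and −0.70 in TNFα (9 of 10 lower). In the same gated neuron-like VC cells most measured genes of the matrix list were higher (11 of 14, median 0.65). So were those of the growth factor receptors (9 of 11, 0.50) and the TNFα response list (6 of 7, 0.61). Over all classes 5854 of 17540 genes were higher in gated VC cells, and the count within neuron-like cells is not given here. Of the gated neuron-like VC cells 26.9% had the highest Scrublet scores. The part of these lists and scores in the lower markers was not tested. In podocyte-like cells the medians were −0.72 and −0.51. The gated VC cells of that class were 26 of 901 in one cluster and 68 of 501 in the other, whose markers do not include PLA2R1, and 37.2% of them had the highest Scrublet scores. With weights to clusters the medians were −0.51 (10 of 10 lower) and −0.50 (9 of 10 lower). The part of the Scrublet scores in these ratios was not tested. There PTPRO, a phosphatase of podocyte foot processes, had −1.25 and −0.94, and PLA2R1, a receptor on their surface, −1.71 in VC (−1.15 with weights to clusters), while NPHS1, or nephrin, had −0.18 and 0.08 and WT1, the podocyte transcription factor, −0.27 and −0.02. In proximal tubule-like cells the medians were −0.69 (10 of 10 lower) and −0.26 (7 of 10 lower), with CUBN, the endocytic receptor cubilin, at −1.82 and −0.83 and FXYD2, a subunit of the sodium pump, at −0.01 and −0.26. With weights to clusters the median in TNFα was −0.35. Skeletal muscle-like TNFα cells had a median of −0.85 (9 of 9 lower), and −0.38 (8 of 9 lower) with weights to clusters. Distal tubule-like VC cells had −0.08, with 5 of 8 markers lower.

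The remaining classes were mixed, and their counts too stand beside the shares of all genes lower over all classes given above. The median of the own markers was −0.44 in myogenic progenitor-like (5 of 7 lower) and −0.27 in nephron progenitor-like VC cells (5 of 6 lower). The medians of the own markers were 0.22 in VC and 0.14 in TNFα for neural progenitor-like and 0.35 and 0.49 for coelomic or gonadal epithelium-like cells. PAX6, a transcription factor of neural progenitors, was at 22.5 CPM in gated and 7.31 CPM in other neural progenitor-like VC cells, SOX2, which keeps progenitors undifferentiated, had log2 ratios of 0.19 and 0.43, and FABP7, a lipid carrier of radial glia, had −0.77 and −0.31. The VC cluster with PAX6 among its markers gave 101 of 236 gated but 106 of 484 other cells, and the cluster with FABP7 the rest. With weights to clusters the VC median was 0.07, PAX6 had 0.77 and FABP7 −0.34. LHX9, a factor of the gonadal ridge, had 0.42 and 0.78. In Schwann or neural crest-like cells the medians were −0.34 (10 of 10 lower) and 0.06 (7 of 10 higher), with S100B, a glial calcium-binding protein, at −0.82 in VC and 0.05 in TNFα. Stromal-like VC cells had a median of −0.26 (8 of 10 lower), with OGN, a small proteoglycan, at −1.38 and POSTN, a matricellular protein, at −0.83. The cluster with OGN among its markers gave 56 of 300 gated but 741 of 1617 other cells, and 74 gated cells were the cluster that was gated throughout. With weights to clusters, which leaves those 74 out, the median was −0.30, and OGN had −0.96 and POSTN −0.80.

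Gated cells were then set against each other across the libraries. Of the 28 listed genes induced by TNFα through NF-κB, 27 had a higher CPM in gated TNFα than in gated VC cells, 20 of them at least 2-fold, and LIF, a cytokine gene, was lower on 23 UMIs in VC and 9 in TNFα. Of these genes 7 had under 50 UMIs in both groups together, and 5 more had under 50 in VC, so that they passed the filter through the group where they were high. The median log2 ratio was 2.50 over the 21 genes with 50 UMIs in all and 2.27 over the 16 with 50 in VC alone, of which 11 were at least 2-fold higher. Over 15269 genes, 2.03% were at least 2-fold higher and 1.57% at least 2-fold lower in gated TNFα cells. In cells outside the gate 28 of 28 were higher, 21 of them at least 2-fold, and over 18437 genes there 2.92% were at least 2-fold higher and 3.41% at least 2-fold lower. The chemokine genes CCL2 and CXCL10 went from 19.6 to 782 CPM and from 0.53 to 53.4 CPM in gated cells, the latter on 15 UMIs in VC and 785 in TNFα. IL32, a cytokine gene, went from 17.0 to 409 CPM, VCAM1, an adhesion molecule, from 14.3 to 188 CPM, and NFKBIA, the inhibitor that NF-κB induces against itself, from 67.0 to 342 CPM. SOD2, a mitochondrial superoxide dismutase, and BID, a proapoptotic protein, had log2 ratios of only 0.16 and 0.01.

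Outside the lists, FDCSP, a small secreted peptide, had the largest ratio, from 0.50 to 186 CPM (log2 ratio 8.56), followed by UBD, a ubiquitin-like modifier (6.08), and TNFRSF4, a receptor of the TNF receptor family (5.26). With 14, 20 and 33 UMIs in gated VC cells, these 3 genes reached 50 UMIs only through the TNFα cells in which they were high, so their order is a description. With listed genes included, 5 genes had the lowest ratios. MT1H, a metallothionein, went from 33.5 to 1.90 CPM, and HES5, a Notch target and one of the neural progenitor markers, from 24.7 to 2.72 CPM. POU3F4, a neural transcription factor, had 86 UMIs in VC and 4 in TNFα. GSX2, a factor of the ventral forebrain, had 76 and 0 UMIs, and C20orf85 had 75 and 0 UMIs. All 5 had under 50 UMIs in gated TNFα cells and passed the filter through VC, so their order is a description too. The neural progenitor markers as a list had a median of −1.49 in gated and −0.99 in other cells, and neural progenitor-like cells made up 11.7% of gated VC and 3.08% of gated TNFα cells. The VC cluster with HES5, PAX6 and SOX1 among its markers (207 cells, 101 gated) had no named counterpart in TNFα, where the neural progenitor-like cluster had SOX2, FABP7, TTYH1 and ZIC1, as the other VC cluster did. The part of this in the lower levels was not tested.

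Within classes named in both libraries, the TNFα response list had medians in gated cells of 2.92 in neuron-like, 2.62 in podocyte-like, 1.79 in proximal tubule-like, 1.70 in Schwann or neural crest-like, 1.60 in neural progenitor-like and 1.40 in coelomic or gonadal epithelium-like cells, over 8, 16, 13, 12, 7 and 6 genes that reached 50 UMIs. In the other cells of these classes they were 3.90, 2.89, 1.90, 2.15, 1.73 and 2.35 in the same order, over 18, 20, 22, 15, 11 and 14 genes, so that the sets of genes differ and the medians are not compared. A gene could reach 50 UMIs through the TNFα cells in which it was high, as 5 of 21 did over all gated cells. The medians by class are therefore a description, and none over genes with 50 UMIs in VC alone is given. In gated coelomic or gonadal epithelium-like cells 1 of the 6 genes was at least 2-fold lower. Whether gated and other cells differ in this could not be tested with 1 library per condition. Within each library, before any comparison of the 2, the response list was lower in gated than in other cells of the same class, 20 of 23 genes in VC and 26 of 27 in TNFα, with medians of −0.35 and −0.39, beside 11686 of 17540 and 10618 of 17156 of all genes lower. Class by class it was not always lower: in VC the median was 0.61 in neuron-like (6 of 7 genes higher), 0.31 in neural progenitor-like (4 of 5) and 0.20 in nephron progenitor-like cells (3 of 3), and in TNFα 0.05 in neuron-like cells.

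Pooled over classes, the mitosis list ran opposite ways inside and outside the gate. In gated cells all 56 genes were lower in TNFα than in VC, none 2-fold, with a median log2 ratio of −0.39, beside 8511 of all 15269 genes lower (median −0.03). In other cells all 56 were higher, 41 at least 2-fold, with a median of 1.39, beside 6943 of all 18437 genes higher (median −0.08). Within classes, gated neuron-like cells had a median of −1.06 (31 of 55 genes at least 2-fold lower). Coelomic or gonadal epithelium-like cells had −0.87 (16 of 56), neural progenitor-like −0.38, and proximal tubule-like and Schwann or neural crest-like cells 0.00. Podocyte-like cells had 0.41 (3 of 55 at least 2-fold higher). Of all genes in gated cells pooled over classes, 1.57% were at least 2-fold lower and 2.03% at least 2-fold higher. Shares of all genes within a class are not given here. The neuron-like classes were made of different clusters: the gated VC cells were 77 of 134 from a cluster led by NEUROD1 and 47 from that led by HES6 and ATOH1, the gated TNFα cells 169 of 195 from a cluster led by STMN2 and PRPH. A cluster with POU2F2 and BARHL2 among its top 10 genes was neuron-like in TNFα and unnamed in VC. Other classes differed too: of the gated neural progenitor-like cells 101 of 236 in VC but none in TNFα came from a cluster led by HES5, and the gated podocyte-like cells were 26 and 68 over the VC clusters and 161 and 59 over TNFα clusters whose top 10 genes overlapped with those of VC in part. The proximal tubule-like class was 1 cluster in VC and 2 in TNFα. In the other cells of these classes, over 15 to 53 measured genes, the median was 1.93, 0.72, 0.49, 0.67, 0.81 and 1.75, in the order of the classes above. CDK1, the kinase that starts mitosis, was at 195 and 142 CPM in gated VC and TNFα cells and at 8.83 and 25.0 CPM in the others. The replication list had medians of −0.09 in gated and 0.34 in other cells, and the matrix list 0.33 and 0.16; without unnamed clusters the matrix median in gated cells was −0.20. The spread of markers between classes and the lower depth of the TNFα library, given above, moved with these values, and their part in them was not tested.

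**Figure D4:**
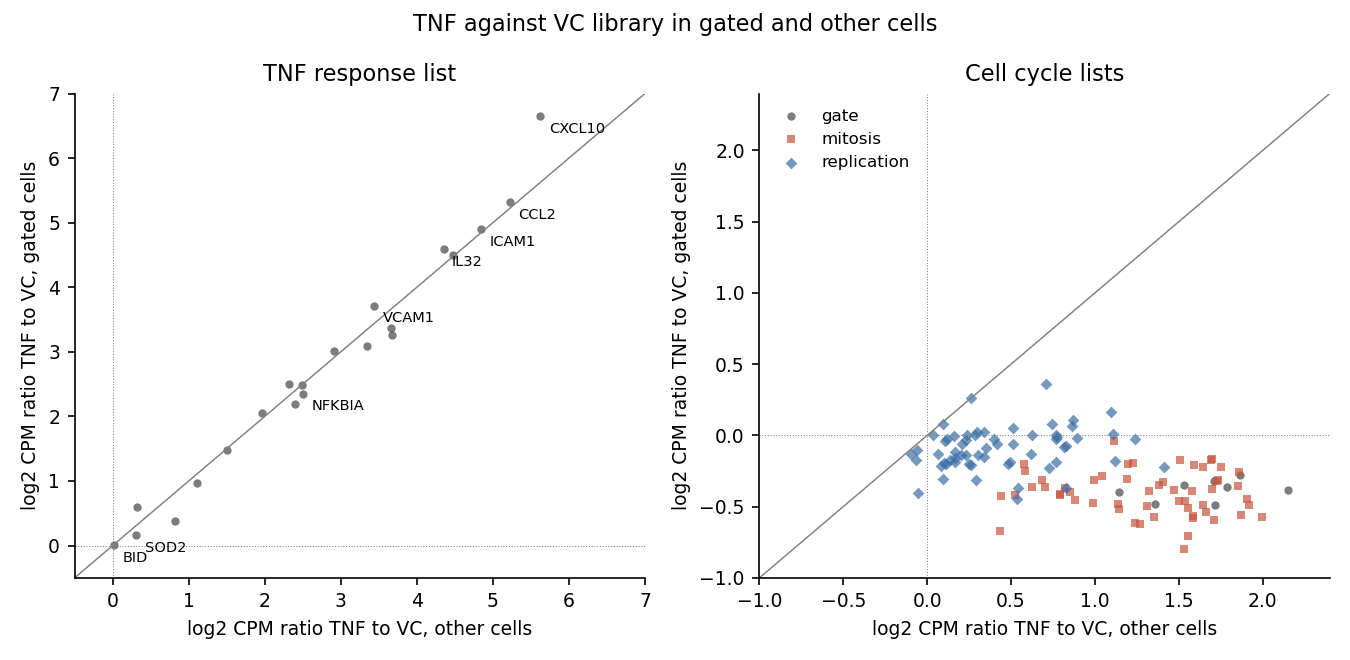
Log2 CPM ratio of the TNFα to the VC library in other cells (horizontal axis) and in gated cells (vertical axis), 1 point per listed gene with at least 50 UMIs in gated cells. Of the 21 TNFα response genes plotted, 16 lie above 1 on the vertical axis, while the mitosis genes lie to the right of 0 and just below it, with medians of 1.39 and −0.39.

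The bulk libraries measured the same genes in samples that the gate did not use. In bulk RNA, fewer cells of a type and less RNA per cell cannot be told apart. MKI67 in set 2, on the log2(CPM + 1) scale used for all bulk values, was at 7.70 and 7.76 on D21, at 7.32 and 7.36 on D25 and at 7.62 and 7.72 on D29. TOP2A was at 7.30 and 7.36, then 6.99 and 6.69, then 7.27 and 7.34. ASPM was at 6.10 and 6.10, then 5.68 and 5.56, then 6.04 and 6.0. For these 3 genes, and for the other 5 gate genes, both D25 libraries lay below all 4 libraries of the other days. The share of all genes with this order is not given here, so the order is a description and is not read as particular to the gate genes.

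Between D21 and D25 all 8 gate genes were lower and 5 passed an adjusted p of 0.05 in limma, which called 3.39% of 27650 genes higher and 1.99% lower. ASPM fell by 0.48 (SE 0.0696, adjusted p 0.00980), MKI67 by 0.39 (SE 0.0693, adjusted p 0.0194), UBE2C by 0.52 (SE 0.0913, adjusted p 0.0196), TOP2A by 0.49 (SE 0.0993, adjusted p 0.0329) and TPX2 by 0.45 (SE 0.0998, adjusted p 0.0437) in limma. DLGAP5 was at −0.41 (adjusted p 0.0585 in limma), CENPE at −0.34 (0.125) and NUSAP1 at −0.25 (0.123). Of the mitosis list 56 of 56 genes were lower, 9 of them called, with a median of −0.37, whereas 13958 of all 27650 genes were lower. The 9 included HMMR, a spindle protein (−0.74, adjusted p 0.0163), AURKA, the kinase of the spindle poles (−0.60, adjusted p 0.0186), CENPF of the kinetochore (−0.56, adjusted p 0.00591) and BUB1B of the spindle checkpoint (−0.50, adjusted p 0.0123), all in limma. Of the replication list 45 of 61 were lower, with a median of −0.08; limma called none, 6 at an unadjusted p under 0.05. The 5 calls became 1 and 0 without the first and the second D21 library, and 2 and 0 without the first and the second D25 library.

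Between D25 and D29 the 8 gate genes were higher and 4 were called by limma, which called 1.25% of genes higher and 0.825% lower. DLGAP5 rose by 0.54 (adjusted p 0.0424), UBE2C by 0.48 (adjusted p 0.0460), NUSAP1 by 0.43 (adjusted p 0.0424) and ASPM by 0.40 (adjusted p 0.0375) in limma. MKI67 was at 0.33 (adjusted p 0.0576) and TOP2A at 0.46 (adjusted p 0.0645). The mitosis list had 56 of 56 genes higher, with a median of 0.33 and 2 calls, KIF20A (0.41, adjusted p 0.0449) and BUB1B (0.42, adjusted p 0.0440), and the replication list 54 of 61 higher, with a median of 0.11 and no call in limma (9 at an unadjusted p under 0.05). How many of all genes were higher from D25 to D29 is not given here, so these counts are a description. This comparison shares its D25 libraries with the one before, so that a low D25 pair enters both. All 4 calls were lost without either D21 library, either D25 library or the second D29 library.

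Between D21 and D29, where limma called 10.0% of all genes higher and 8.33% lower, no gate gene and no gene of the mitosis list was called (0 and 3 at an unadjusted p under 0.05). The gate genes ranged from −0.08 for ASPM to 0.18 for NUSAP1, with adjusted p from 0.166 to 0.902. Of the replication list, SLBP, the histone mRNA binding protein, fell by 0.28 (adjusted p 0.0403) in limma. Without the first or the second D21 library no gene of that list was called.

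Set 1 has 1 library a day and no test. MKI67 was at 7.68 on D21, 7.57 on D25 and 7.90 on D29, and TOP2A at 7.84, 7.57 and 7.75. D25 was the lowest of the 3 days for 7 of the 8 gate genes, for 73.2% of the mitosis list, for 57.4% of the replication list and for 25.2% of all 20121 genes. UBE2C was the exception among the gate genes, at 4.51, 4.60 and 4.62.

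In the TNF set, VC and TNFα had 1 library each at 24 h and 48 h. The fit had 1 residual degree of freedom before limma shared the spread over genes. That degree is the change of the TNFα difference between the times, so the p-values measure no spread between replicates. For a gene whose difference turned sign between the times, the turn counted as error and made a call less likely. MKI67 was at 6.66 in VC and 6.27 in TNFα at 24 h and at 6.77 and 6.87 at 48 h. TOP2A was at 6.98 and 6.55 at 24 h and at 7.15 and 7.19 at 48 h. None of the 8 gate genes was called by limma, which called 8.42% of 21093 genes higher and 10.8% lower, and 1 had an unadjusted p under 0.05 (TOP2A, −0.19, adjusted p 0.140). Of the mitosis list PTTG1, or securin, rose by 0.23 (adjusted p 0.0422) and CDC20, an activator of the anaphase-promoting complex, fell by 0.30 (adjusted p 0.0174), and of the replication list MCM7, a subunit of the replicative helicase, rose by 0.20 (adjusted p 0.0302) in limma. The TNFα response list had 24 of 25 genes called higher, with a median of 2.26.

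The times pointed different ways for the mitotic genes. NUSAP1 was near 0 in all 4 libraries of this table, between 0.43 and 0.53, against 4.86 to 5.74 in the other sets, while the remaining gate genes were at ordinary levels, so its value there is not read as expression. At 24 h the 7 other gate genes and 53 of 56 mitosis genes were lower in TNFα, with medians of −0.33 and −0.25, as were 12292 of all 21093 genes, and at 48 h 0 and 12 were lower, with medians of 0.07 and 0.07, as were 11157 of all genes.

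**Figure D5:**
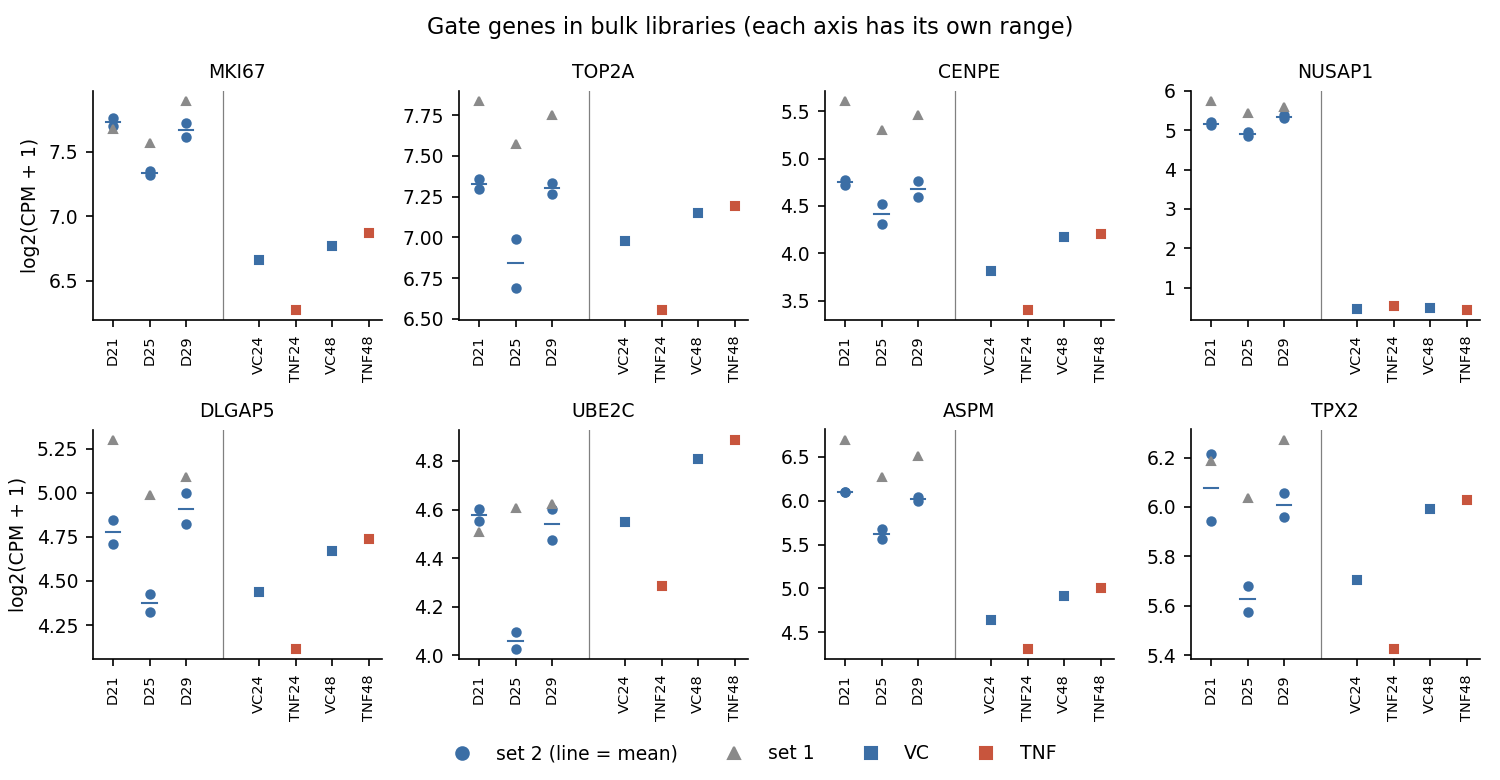
The 8 gate genes in each bulk library as log2(CPM + 1) (vertical axis, own range for each gene) by day for set 1 (triangles) and set 2 (circles, line at the mean) and by treatment and hours for the TNF set (squares). In set 2 the D25 pair is below the D21 and D29 pairs for each of the 8 genes, a description without the share of all genes with this order. NUSAP1 is near 0 in the TNF set alone.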

How the data were processed

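The authors deposited UMI counts per gene and barcode for each single-cell library (Cell Ranger, version 6.0.1 in the matrix headers and 2.1.1 in the processing notes; builds hg19 and hg38 are both listed), and log2 values for the bulk libraries (STAR 2.7.8a, HTSeq 0.11 and GRCh38 per the labels, voom per the study's methods). Taken as log2(CPM + 1), with 0.5 reads added to each count before scaling, the deposited values give whole reads. Matrices held 36601 genes. The bulk tables were normalized separately and were tested only within a table. Bulk depth was 25508651 to 29408687 reads in set 1, 19073609 to 30282025 in set 2 and 49948198 to 59246286 in the TNF set. Nothing states that the replicate libraries of set 2 came from separate differentiations, so p-values measure the spread between these libraries. A further single-cell library, untreated at day 25, was not analysed here.

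The gate, classes and gene lists, and the comparisons with D25, were chosen with earlier results of these data known. Each library was clustered apart (scanpy 1.11.5, 2000 variable genes, 30 components, 20 neighbours, Leiden resolution 1). Histone and mitochondrial genes and a set of cell cycle genes were left out, but CDKN3, DEPDC1 and PIF1 stayed in. A marker counted at 20 CPM and a log2 ratio of 1 over other cells (10 CPM added), with at least 3 for a name, and a name was withheld when another class led the top 10 genes. Ratios of gated to other cells weighted the other cells to the classes of the gated cells, needed 50 UMIs and used a floor of 3 counts per group where a group was at 0. Genes named outside the lists were the 10 highest and 10 lowest by the smaller absolute ratio of the 2 libraries. They needed at least 50 UMIs in gated cells of each. The 5 highest and 5 lowest between gated TNFα and VC cells were named whether listed or not. They include CXCL10 and CCL2 of the TNFα response list and HES5 of the neural progenitor markers. Intervals are exact at 95%. Bulk values were tested with limma 3.58.1 (trend, 1 mean per day, or time and treatment, Benjamini-Hochberg over all genes). All bulk values (100%) were whole reads within 0.01 reads, so edgeR 4.0.16 and DESeq2 1.42.0 were run as alternatives. The steps were tested on simulated data. Other alternatives covered the gate threshold, depth, doublets, cluster resolution, filters, left-out libraries and median centring. A result for 1 listed gene is not reported here.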

Additional observations from a re-analysis of the deposited data

Results flagged for a closer look

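In the TNF set the difference of TNFα minus VC had opposite signs at 24 h and 48 h for the 7 gate genes at ordinary levels there, with 1 library in each group; the difference between the times was not tested. On the log2 scale it was −0.388 at 24 h and 0.0998 at 48 h for MKI67, −0.423 and 0.0451 for TOP2A, −0.412 and 0.0268 for CENPE, and −0.322 and 0.0674 for DLGAP5. It was −0.265 and 0.0774 for UBE2C, −0.330 and 0.0994 for ASPM and −0.279 and 0.0369 for TPX2. NUSAP1, near 0 in this table and not read as expression there, had 0.0906 and −0.0468. The median of the mitosis list was −0.254 at 24 h and 0.0742 at 48 h, and that of the replication list −0.00948 and 0.0425.

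Between the single-cell libraries, gated and other cells also moved apart, which was not tested either. The median log2 ratio of TNFα to VC was −0.372 in gated and 1.71 in other cells over the 8 gate genes, which the gate itself selects on, −0.394 and 1.39 over the mitosis list, and −0.0885 and 0.339 over the replication list.

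A signal of the gate genes was also present in data left out of the comparisons. The 588 VC barcodes with 500 or fewer genes held 289 UMIs of the 8 gate genes, which is 831 CPM (738 to 933), with the 885 CPM of all analysed VC cells inside that interval, and 9 of them reached 4 gate genes.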

How the results depend on the processing

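The direction of the comparison of the gated shares of the libraries, of the mitosis and replication lists in gated against other cells and of the TNFα response list was the same under every alternative run; the sizes were not, and the order of the classes changed at 1500 UMIs. The gated share was 20.7% in VC and 17.1% in TNFα with at least 3 gate genes (ratio 0.830), 14.5% and 5.63% with at least 5 (0.388), 7.13% and 2.88% at 1500 UMIs (0.403), 15.9% and 10.2% without the highest Scrublet scores (0.641), 18.7% and 9.64% without unnamed clusters, and 18.1% in VC over 1000 genes. Scrublet's own threshold removed no cell, so that alternative gave no value. The stromal-like share of gated VC cells was 12.6% at resolution 0.5, 20.7% at resolution 2, 19.9% with cell cycle genes kept and 16.5% without the highest scores, and in TNFα it was 9.99% at resolution 2. The replication list median was 1.45 in VC and 1.03 in TNFα without class weights, 1.20 and 0.95 without the highest scores, 0.56 and 0.33 at 1500 UMIs, and 0.80 in TNFα without unnamed clusters; with weights to clusters in place of classes it was 1.13 and 0.92. The TNFα response median in gated cells was 2.45 without the highest scores, 2.33 without unnamed clusters, 3.24 at 1500 UMIs 2.27 with at least 50 UMIs in VC and 2.39 with TNFα cells weighted to VC classes. The matrix list in gated cells went from 0.33 to −0.20 without unnamed clusters.

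For the bulk libraries, all 8 gate genes kept their direction in both comparisons with D25 under every alternative. Calls from D21 to D25 were 5 in the main fit, 6 with edgeR, 5 with DESeq2, 8 with median centring and 0 to 6 with 1 library left out; from D25 to D29 they were 4, 6, 7, 5 and 0 to 6. Mitosis calls from D21 to D25 were 9, 17 with edgeR, 16 with DESeq2 and 32 with median centring, and 0 to 18 with 1 library left out; from D25 to D29 they were 2, 8 with edgeR, 9 with DESeq2 and 0 to 7 with 1 library left out. From D21 to D29 no alternative called a gate gene (edgeR 1 and DESeq2 0 at an unadjusted p under 0.05); edgeR called 3234 genes higher and 2318 lower. Small differences of that comparison turned sign: TOP2A was at 0.0019 with DESeq2 and from −0.058 (without D29 replicate 2) to 0.0077 (without D29 replicate 1) with 1 library left out, where CENPE ran from −0.16 (without D29 replicate 1) to 0.014 (without D29 replicate 2), UBE2C from −0.10 (without D29 replicate 2) to 0.026 (without D29 replicate 1) and TPX2 from −0.21 (without D21 replicate 1) to 0.064 (without D21 replicate 2). Between TNFα and VC, median centring called 1 gate gene, TOP2A (limma, adjusted p 0.0436). With the replicate number as a block, gate calls were 7 from D21 to D25, 6 from D25 to D29 and 0 from D21 to D29, and mitosis calls from D21 to D25 were 22; the numbers were not taken to pair the libraries, since deviations from the day means correlated at 0.141, 0.0756 and 0.268 for the 3 pairs of days. The alternatives without the highest Scrublet scores, without unnamed clusters, with weights to clusters, with 50 UMIs in VC and with median centring were chosen after seeing the data. The causes were not tested.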
